A study of Mus musculus with 10 samples.

Results

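The Polycomb repressive complex genes examined here are 10 genes of the mouse genome that encode core subunits of the 2 main Polycomb complexes: Ezh2, Ezh1, Eed and Suz12 of Polycomb repressive complex 2 (PRC2), and Rnf2, Ring1, Bmi1, Cbx2, Cbx7 and Phc1 of Polycomb repressive complex 1 (PRC1). Members were all probe sets of the array whose gene symbol, current or older, was one of these names. The rule took 24 probe sets of 10 genes, out of 22690 probe sets and 12393 genes with a symbol in the whole table. No probe set was found by an older symbol alone (0 of 24), and 0 carried several symbols.

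PRC2 places methyl groups on lysine 27 of histone H3, and PRC1 attaches ubiquitin to histone H2A and compacts chromatin. Together they keep developmental genes silent, and in fibroblasts they are best known for repressing the Ink4a/Arf locus, which encodes inhibitors of cell division. SWI/SNF is a chromatin remodelling complex that slides and evicts nucleosomes. Its subunits were found in Drosophila as opponents of Polycomb silencing, and the comparison asks whether cells that lack a SWI/SNF subunit differ in the RNA of Polycomb genes.

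RNA was measured on 10 Affymetrix arrays of primary mouse embryonic fibroblasts (MEFs), cells taken from E13.5 embryos and grown in culture. The groups were 3 arrays of Snf5-/- cells, 4 arrays of Brg1-/- cells and 3 arrays of wild type (WT) cells. Snf5 (Smarcb1) is a core subunit of SWI/SNF, and Brg1 (Smarca4) is one of its 2 alternative ATPases. All cells were C57BL/6 and 129 mixed, Cre recombinase was brought in by a retrovirus, and puromycin at 2.5 ug/ml selected the infected cells, as described for WT cells too. The labels do not say whether arrays of a group came from separate embryos or cultures, so p-values reflect array-to-array spread, which may be technical. Smarcb1 intensity was 279 to 331 on the Snf5-/- arrays, 808 to 1030.1 on the Brg1-/- arrays and 844 to 1119 on the WT arrays. Smarca4 intensity was 387 to 607 on the Brg1-/- arrays, 2424 to 3162 on the Snf5-/- arrays and 2275 to 3829 on the WT arrays. Each targeted gene was thus lowest in its own mutant, although the position of the probes relative to the deleted part was not given. All 15 of 15 fibroblast markers lay above the array's background on every array. The deposited values share no common level: array medians ran from 146 to 234, and the median change of all 8403 genes tested was -0.27 (Snf5-/- minus WT) and -0.47 (Brg1-/- minus WT) on the log2 scale. Changes are therefore given after quantile normalization, where those medians were 0.02 and 0.02. Values on the deposited scale are given beside them for most members and for many of the calls that ended there. With 3 or 4 arrays a group, precision is low.

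Of the 10 Polycomb genes, 9 had a probe set that passed the filter on low values, and Cbx7 did not. Against WT, Rnf2 and Phc1 rose in Snf5-/- cells, and Ezh2, Suz12, Rnf2 and Phc1 rose in Brg1-/- cells. Thus 2 of 9 genes were called higher and 0 lower in Snf5-/- cells, where 10.2% of all genes tested were called higher and 7.14% lower (limma, Benjamini-Hochberg adjusted p under 0.05). In Brg1-/- cells 4 of 9 were called higher and 0 lower, against 14.2% of all genes higher and 12.2% lower. The median log2 change of the 9 genes was 0.17 in Snf5-/- cells and 0.40 in Brg1-/- cells after quantile normalization. On the deposited scale it was -0.09 and -0.03, above the median of all genes given above, and only Rnf2 was called higher in each mutant (1 of 9, against 3.18% of all genes in Snf5-/- cells and 3.33% in Brg1-/- cells). Both comparisons share the 3 WT arrays and are not independent. In whole cultures, fewer cells that express a gene and less RNA per cell cannot be told apart.

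**Figure D1:**
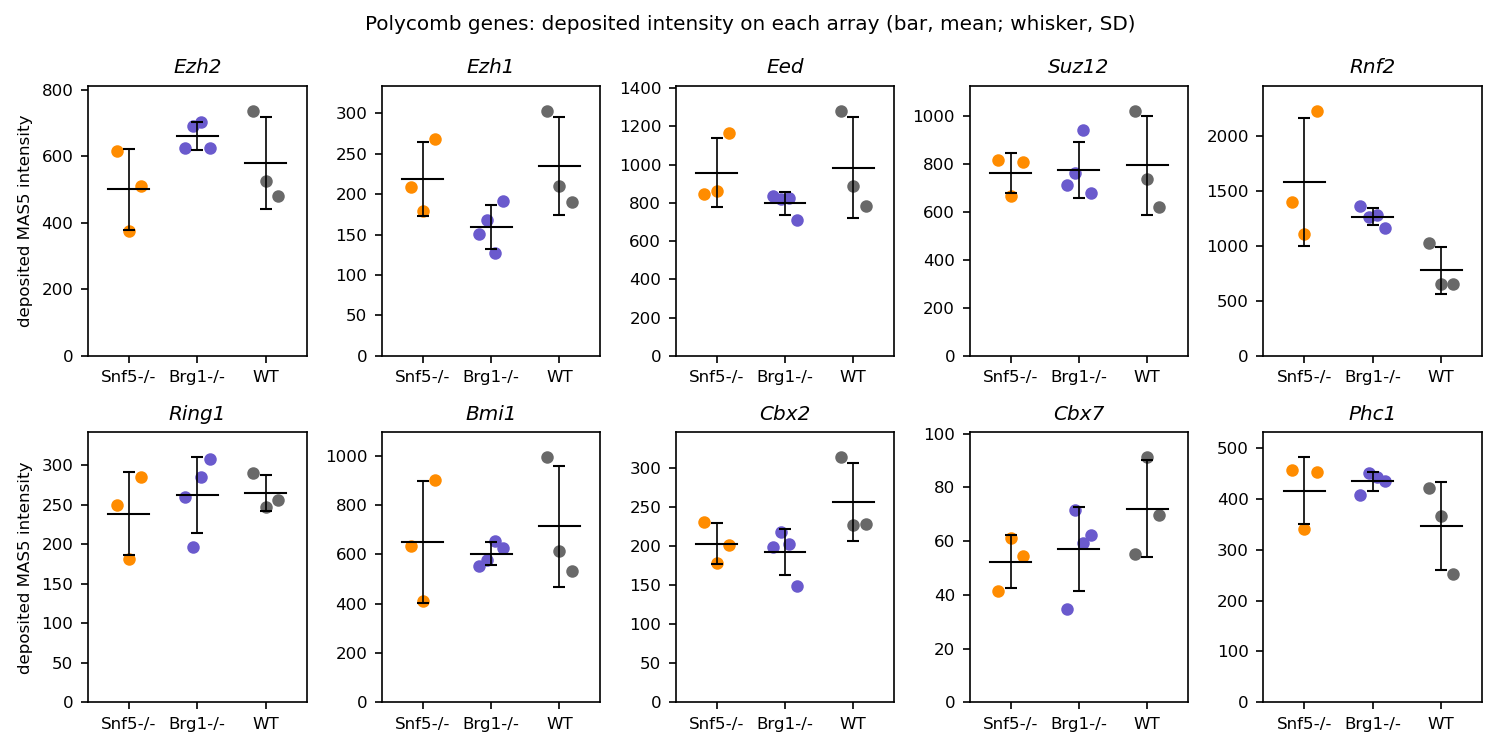
Deposited MAS5 intensity of the brightest probe set of each of the 10 Polycomb genes (vertical axis, linear, from 0) on each array of Snf5-/-, Brg1-/- and WT cells; points are arrays, bars are means and whiskers are SD (n = 3, 4 and 3). For Rnf2 the mutant arrays, from 1109 to 2228, all lie above the highest WT array at 1022. For Eed, Suz12, Bmi1 and Ring1 both mutant groups overlap the WT arrays on this scale.

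The promoters of the 4 genes that were called higher in Brg1-/- cells are shown because they carry the matches, or lack them, to motifs of genes that follow the cell cycle. RefSeq windows (build GRCm38.p6) of 250 bases before to 50 bases after the gene's start were held for 9 of 10 members. The motifs searched on both strands were the E2F site (TTTCCCGC, TTTGGCGC, TTTCGCGC or TTTGCCGC), the CCAAT box (CCAAT) and the CHR element (TTTGAA), none of which overlap in the windows below. The 250 bases before the start of Ezh2 lie at chr6:47595031-47595280 on the minus strand, those of Suz12 at chr11:79992856-79993105 on the plus strand, those of Rnf2 at chr1:151500992-151501241 on the minus strand and those of Phc1 at chr6:122340228-122340477 on the minus strand. For Ezh2 the 20 bases after the start, chr6:47595011-47595030 on the minus strand, are given as well. The start used for Ezh2 lies inside the gene's annotated span, which reaches chr6:47595270. Most of the bases printed before that start thus fall within the span. Capitals mark motif matches, and each sequence runs 5′ to 3′ along the gene.
Ezh2, before the start: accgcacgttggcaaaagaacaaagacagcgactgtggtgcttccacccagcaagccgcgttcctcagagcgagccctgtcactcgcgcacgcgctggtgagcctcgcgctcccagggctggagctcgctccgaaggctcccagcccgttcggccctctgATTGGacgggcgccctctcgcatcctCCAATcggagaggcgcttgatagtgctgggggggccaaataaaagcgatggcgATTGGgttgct
Ezh2, after the start: gcgTTTGGCGCtcggtccgg
Suz12, before the start: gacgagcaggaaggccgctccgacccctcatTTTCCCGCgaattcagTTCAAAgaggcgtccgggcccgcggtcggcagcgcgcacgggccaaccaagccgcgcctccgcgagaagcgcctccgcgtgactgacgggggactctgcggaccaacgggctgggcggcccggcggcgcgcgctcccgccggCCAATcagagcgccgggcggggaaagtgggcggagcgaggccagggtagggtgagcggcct
Rnf2, before the start: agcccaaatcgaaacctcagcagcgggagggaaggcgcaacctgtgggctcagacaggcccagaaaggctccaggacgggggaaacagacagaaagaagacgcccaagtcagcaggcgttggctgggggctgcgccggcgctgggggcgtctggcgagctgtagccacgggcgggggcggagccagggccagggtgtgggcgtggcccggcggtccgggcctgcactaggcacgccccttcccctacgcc
Phc1, before the start: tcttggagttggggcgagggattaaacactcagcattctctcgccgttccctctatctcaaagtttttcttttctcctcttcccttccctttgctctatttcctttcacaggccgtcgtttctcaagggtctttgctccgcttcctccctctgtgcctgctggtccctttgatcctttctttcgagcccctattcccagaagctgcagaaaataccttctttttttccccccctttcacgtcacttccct
Ezh2 held 3 CCAAT matches, which begin 90, 64 and 11 bases before the start, and TTTGGCGC at bases 4 to 11 after it. Suz12 held TTTCCCGC 219 bases before the start, the reverse of the CHR letters 203 bases before it and CCAAT 61 bases before it. Rnf2 and Phc1 held none of these letters in the window, which says nothing about the factors themselves. An E2F match stood in 2 of the 9 member windows (Ezh2 and Suz12), against 2.26% of 32851 RefSeq windows. The E2F letters hold more G and C than A and T. G and C made up 63.6% of the 250 bases before the start in Ezh2 and 73.6% in Suz12, against a median of 52.4% over all windows. The part of base content was not tested. CCAAT stood in 4 of 9 (Ezh2, Suz12, Eed and Cbx7), against 37.4% of windows, and CHR in 3 of 9 (Suz12, Eed and Cbx7), against 17.9%. A match of letters is a description and not a site of binding.

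Ezh2, the main histone H3 lysine 27 methyltransferase of dividing cells, was higher in Brg1-/- cells than in either other group after quantile normalization. Its probe set (1416544_at, gene on chromosome 6) had a deposited intensity of 616, 375 and 512 on the Snf5-/- arrays, 624, 691, 703 and 626 on the Brg1-/- arrays, and 738, 526 and 479.7 on the WT arrays. The Brg1-/- arrays were close to each other, while both other groups spread widely and the first WT array was the brightest of all. The means were 501 ± 121 in Snf5-/- cells, 661 ± 42.0 in Brg1-/- cells and 581 ± 138 in WT cells (SD, n = 3, 4 and 3). After quantile normalization the log2 change was 0.69 ± 0.15 (SE) in Brg1-/- cells, with every Brg1-/- array above every WT array (limma adjusted p = 0.0059). The call ended on the deposited scale, where the change was 0.21 and the adjusted p 0.405. In Snf5-/- cells the log2 change was 0.07 ± 0.16 (adjusted p = 0.806), with a 95% interval from -0.28 to 0.42.

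Ezh1, the related methyltransferase found mainly in non-dividing cells, passed in neither comparison. Its brighter probe set (1449023_a_at) had 208, 179 and 268 on the Snf5-/- arrays, 151, 168, 128 and 192 on the Brg1-/- arrays, and 303, 209.6 and 191 on the WT arrays. The lowest values were among the Brg1-/- arrays, but the groups overlapped. Its log2 change was 0.17 ± 0.20 in Snf5-/- cells (adjusted p = 0.612) and -0.13 ± 0.19 in Brg1-/- cells (adjusted p = 0.673). As deposited, the changes were -0.09 (limma adjusted p = 0.814) and -0.54 (adjusted p = 0.0672). The other probe set (1418290_a_at) gave -0.25 and -0.01, so the 2 probe sets of Ezh1 disagreed in sign in Snf5-/- cells.

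Suz12, a scaffold without which PRC2 is unstable, rose in Brg1-/- cells by a small amount that only the normalized scale showed. Its brightest probe set (1420021_s_at) had 816, 667 and 808 on the Snf5-/- arrays, 714, 761, 942 and 678 on the Brg1-/- arrays, and 1023, 739 and 621 on the WT arrays. As deposited, the WT arrays enclosed both mutant groups. The quantile-normalized log2 change was 0.48 ± 0.12 in Brg1-/- cells (limma adjusted p = 0.014) and 0.26 ± 0.13 in Snf5-/- cells (adjusted p = 0.208). The deposited values gave a change of -0.02 in Brg1-/- cells (adjusted p = 0.945). The call was also lost without the third WT array (adjusted p = 0.0692) and with each array centred on its median (adjusted p = 0.0779). Of its 6 probe sets, 4 passed the filter. Among them 1452364_at also rose in Brg1-/- cells (0.60, adjusted p = 0.0168), but not as deposited (0.17, adjusted p = 0.53). By contrast, 1427253_s_at gave 0.19 (adjusted p = 0.261) and the dim 1420022_s_at gave 0.87. The last of these reached the filter's level on 3 arrays, just inside, of which 2 were Snf5-/-, 1 was Brg1-/- and 0 were WT, so it passed only through mutant arrays. The probe set 1449661_at reached that level on 2 arrays, just outside.

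Eed, the subunit that binds trimethylated lysine 27 and stimulates the enzyme, passed in neither comparison. It had 844, 863 and 1165 on the Snf5-/- arrays, 835, 818, 827 and 709 on the Brg1-/- arrays, and 1282, 887 and 783 on the WT arrays. As deposited, both mutant groups overlapped the WT arrays, with 1 bright array in each of the Snf5-/- and WT groups. All Brg1-/- arrays were below all Snf5-/- arrays on that scale. After normalization every Snf5-/- array was above every WT array, and the Brg1-/- arrays overlapped both other groups. The quantile-normalized log2 change was 0.29 ± 0.13 in Snf5-/- cells (adjusted p = 0.14) and 0.25 ± 0.12 in Brg1-/- cells (adjusted p = 0.143), and it was below 0 in each on the deposited scale (-0.02 and -0.27).

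Rnf2 (Ring1B), the main E3 ligase that attaches ubiquitin to histone H2A, had the largest change among the members in both mutants. Its brightest probe set (1424873_at, gene on chromosome 1) had 1400.4, 1109 and 2228 on the Snf5-/- arrays, 1357, 1257, 1282 and 1165 on the Brg1-/- arrays, and 1022, 654 and 655 on the WT arrays. All mutant arrays were above all WT arrays, on both scales. The means were 1579 ± 581 in Snf5-/- cells, 1265 ± 79.0 in Brg1-/- cells and 777 ± 212 in WT cells (SD, n = 3, 4 and 3). After quantile normalization Rnf2 was 2.43-fold higher in Snf5-/- cells, a log2 change of 1.28 ± 0.17 (limma adjusted p = 0.000406). In Brg1-/- cells it was 2.37-fold higher, a log2 change of 1.24 ± 0.16 (adjusted p = 0.000181). It was the only member that passed on the deposited scale as well, with 0.99 in Snf5-/- cells (adjusted p = 0.00794) and 0.73 in Brg1-/- cells (adjusted p = 0.0133), and both calls held in 20 of 20 alternative settings.

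The other Rnf2 probe sets were measured from the same RNA and are not further replicates. The second, 1451519_at, rose in Snf5-/- cells (1.07, adjusted p = 0.000814) and in Brg1-/- cells (0.99, adjusted p = 0.000474). As deposited, 1451519_at passed in Snf5-/- cells (0.78, limma adjusted p = 0.0252) but not in Brg1-/- cells (0.47, adjusted p = 0.0818). Its Brg1-/- and WT arrays overlapped on that scale. The dimmer 1448042_s_at had 70.1, 107 and 159.6 on the Snf5-/- arrays, 132, 192, 159 and 152 on the Brg1-/- arrays, and 55.9, 69.8 and 96.5 on the WT arrays. Here the Brg1-/- arrays stood above all WT arrays, and the Snf5-/- arrays overlapped with them. It reached the filter's level on 2 Snf5-/- arrays, 4 Brg1-/- arrays and 0 WT arrays, so it was tested only because of the mutant arrays, and its log2 changes (0.79 in Snf5-/- cells and 1.51 in Brg1-/- cells) are given as a description. The remaining 2 probe sets failed the filter, and 1448041_at was at background on all arrays.

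Ring1, the paralogous ligase, and Bmi1, the PCGF partner that activates the ligase, passed in neither comparison. Ring1 had 249.7, 182 and 286 on the Snf5-/- arrays, 260.3, 197, 285 and 309 on the Brg1-/- arrays, and 290.5, 247 and 256 on the WT arrays. Its quantile-normalized log2 change was 0.40 ± 0.17 in Brg1-/- cells (adjusted p = 0.102) and 0.08 ± 0.18 in Snf5-/- cells (adjusted p = 0.789). After normalization every Brg1-/- array exceeded every WT array for Ring1, as it did for 5 of the 9 members (the others being Ezh2, Suz12, Rnf2 and Phc1), against 20.9% of all genes tested. In Snf5-/- cells 4 of 9 (Eed, Suz12, Rnf2 and Phc1) had every array above every WT array, against 19.5% of all genes. Bmi1 had 635, 409 and 902 on the Snf5-/- arrays, 553, 579, 654 and 625 on the Brg1-/- arrays, and 994, 612 and 532 on the WT arrays. The Snf5-/- and WT arrays of Bmi1 spread over the widest range and enclosed the Brg1-/- arrays. Its log2 change was 0.14 ± 0.19 in Snf5-/- cells (adjusted p = 0.674) and 0.29 ± 0.18 in Brg1-/- cells (adjusted p = 0.273). A dimmer Bmi1 probe set (1448733_at) gave 0.52 (limma adjusted p = 0.279) and 0.30 (adjusted p = 0.489).

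Cbx2 and Cbx7 encode chromodomain proteins that read lysine 27 methylation and bring PRC1 to chromatin. Cbx2 (1434116_at) had 231, 179 and 201 on the Snf5-/- arrays, 199, 218, 204 and 149.9 on the Brg1-/- arrays, and 315, 228 and 229 on the WT arrays. It was lower on the Brg1-/- arrays than on all WT arrays as deposited, and the groups overlapped after normalization. Its normalized log2 change was -0.06 ± 0.21 in Snf5-/- cells (adjusted p = 0.87) and 0.00 ± 0.20 in Brg1-/- cells (adjusted p = 0.999). Cbx7 was dim: its brighter probe set (1449713_at) had 41.5, 61.0 and 54.6 on the Snf5-/- arrays, 34.9, 71.7, 59.4 and 62.4 on the Brg1-/- arrays, and 55.2, 91.3 and 69.8 on the WT arrays. These values lie near the background of 26.7 to 57.4 given by the bacterial control probe sets, the groups overlapped, and the gene was not tested.

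Phc1, a polyhomeotic protein whose SAM domain links PRC1 complexes to each other, rose in both mutants after normalization. It had 456, 339.9 and 452 on the Snf5-/- arrays, 407, 450.1, 444 and 435 on the Brg1-/- arrays, and 422, 366 and 252 on the WT arrays. The Brg1-/- arrays were close together and the third WT array was the lowest. The log2 change was 0.80 ± 0.15 in Brg1-/- cells (limma adjusted p = 0.00214) and 0.55 ± 0.16 in Snf5-/- cells (adjusted p = 0.0316). As deposited, the changes were 0.36 (adjusted p = 0.146) and 0.28 (adjusted p = 0.347), and neither passed. The Snf5-/- call was also lost without the first WT array (adjusted p = 0.0527), the third WT array (adjusted p = 0.13), the first Snf5-/- array (adjusted p = 0.108) or the third Snf5-/- array (adjusted p = 0.0586), and when only the groups compared were fitted (adjusted p = 0.0794).

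**Figure D2:**
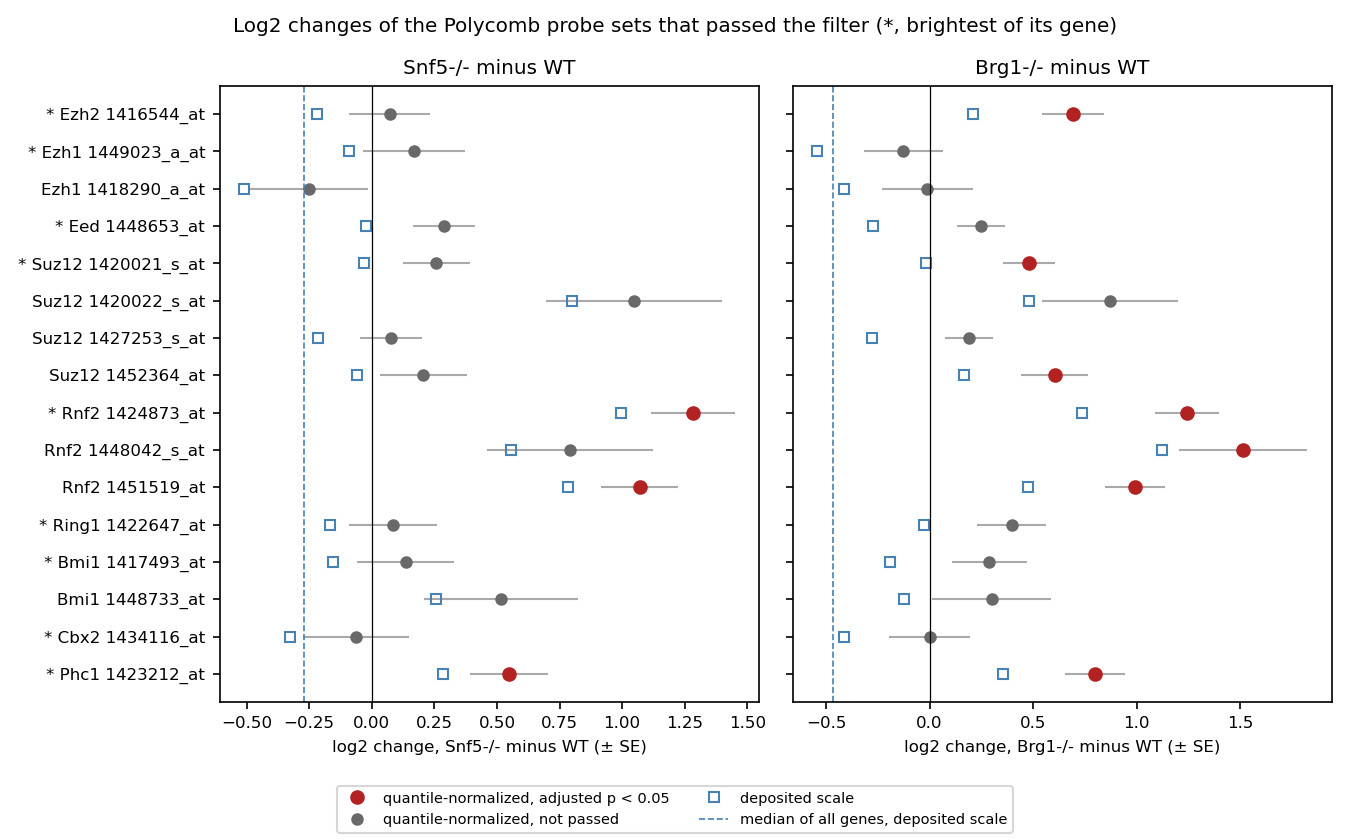
Log2 change (horizontal axis, ± SE) of the 16 Polycomb probe sets that passed the filter, in Snf5-/- minus WT (left) and Brg1-/- minus WT (right); filled circles are quantile-normalized, red where the adjusted p was under 0.05, open squares are the deposited scale and the dashed line is the median of all genes on that scale. Probe sets of 1 gene share their RNA, 1448042_s_at of Rnf2 and 1420022_s_at of Suz12 passed the filter only through mutant arrays, and most squares lie between the dashed line and the circles.

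Set directly against each other, Brg1-/- and Snf5-/- cells differed in 1 of 9 members, Ezh2, where 1.82% of all genes tested were called higher and 2.09% lower. Every Brg1-/- array was above every Snf5-/- array for Ezh2, with a log2 difference of 0.62 ± 0.15 (limma adjusted p = 0.0419). The adjusted p was close to the threshold and ranged from 0.0117 to 0.244 over 20 alternative settings, with the call held in 6 of them. The deposited values gave a difference of 0.43 (adjusted p = 0.244). For Rnf2 the difference was -0.04 ± 0.16 with a 95% interval from -0.38 to 0.30, and for Phc1 it was 0.25 ± 0.15 with an interval from -0.07 to 0.57. For Suz12 it was 0.22 ± 0.12, with an interval from -0.05 to 0.49. The intervals show how large a difference these arrays could have left undetected.

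The profile of Ezh2 over the 10 arrays was most like those of Mre11a (DNA double-strand break repair), Mcm10 (DNA replication), Dek (a chromatin protein), Rrm2 (deoxynucleotide synthesis) and Nudcd3, as a description. Likeness was the mean absolute difference between mean-centred quantile-normalized log2 values, which was 0.055 for Mre11a, 0.091 for Mcm10, 0.094 for Dek, 0.095 for Rrm2 and 0.10 for Nudcd3, against a median of 0.39 over 8402 genes. Among the members, Suz12 came at rank 78, Phc1 at 157 and Ring1 at 240, while Rnf2 came at rank 4620 and Ezh1 at 4974. Ezh2 and Eed are known as targets of the Rb and E2F pathway, which switches on genes for DNA replication. Of 25 tested S phase genes, 19 rose in Brg1-/- cells and 1 in Snf5-/- cells, with 0 lower in each and median log2 changes of 0.84 and 0.26, against 14.2% and 10.2% of all genes called higher. With the deposited values 9 rose in Brg1-/- cells (3.33% of all genes) and 0 in Snf5-/- cells (3.18%). There 1 fell in Snf5-/- cells (16% of all genes), and the medians were 0.30 and 0.01. Of 24 tested G2/M genes, 23 rose in Brg1-/- cells and 17 in Snf5-/- cells, with 0 lower in each and medians of 1.59 and 0.81, and with the deposited values 21 and 9 rose, with medians of 1.10 and 0.56. Mcm7, a subunit of the replicative helicase, rose in Brg1-/- cells (1.14) and in Snf5-/- cells (0.52), where the call ended with the deposited values (adjusted p = 0.484), and Ccnb2, a mitotic cyclin, rose in both (2.16 and 0.97). After normalization Ezh2 was thus highest on the Brg1-/- arrays, as were the means of both lists. In Snf5-/- cells, where 17 of 24 G2/M genes and 1 of 25 S phase genes rose, the log2 change of Ezh2 was 0.07. The part of these lists in the result was not tested.

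**Figure D3:**
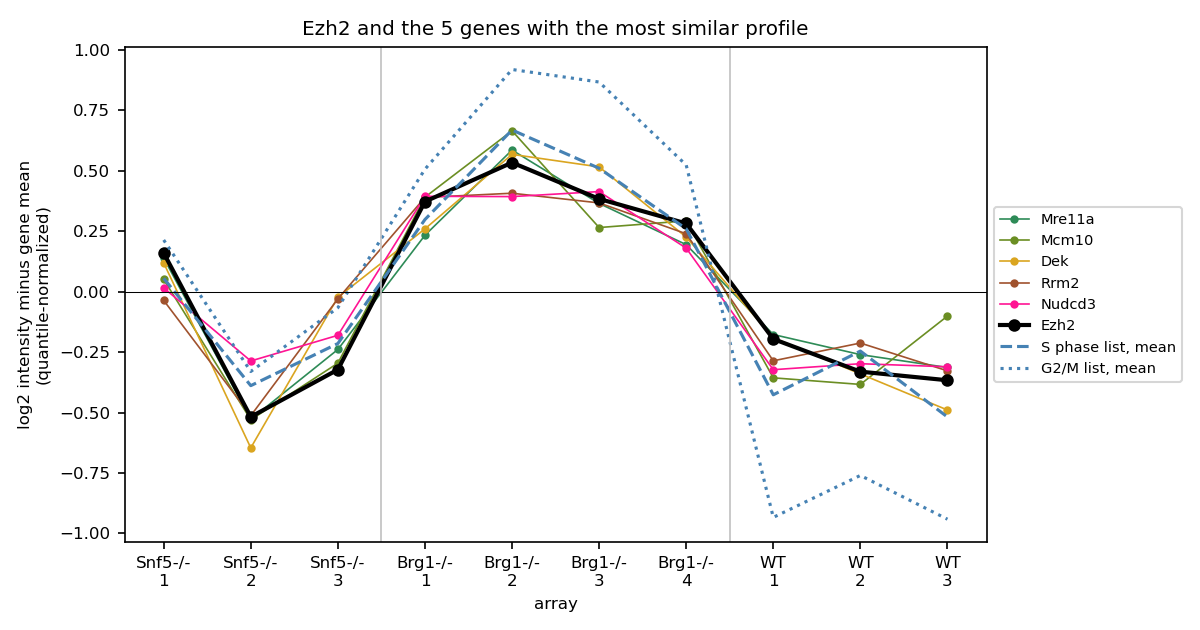
Quantile-normalized log2 intensity minus each gene's mean (vertical axis) on each of the 10 arrays, for Ezh2 (thick black), the 5 genes with the most similar profile, and the means of the S phase (dashed) and G2/M (dotted) lists. Ezh2 and the S phase mean lie above 0 on all 4 Brg1-/- arrays and below 0 on all 3 WT arrays, and on the Snf5-/- arrays only the first is above 0 for Ezh2.

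Of 8 tested genes for other subunits and partners of PRC2, 1 rose in Snf5-/- cells (Rbbp7, a histone-binding protein, 0.39 ± 0.11, adjusted p = 0.0296) and 1 in Brg1-/- cells (Mtf2, which helps bring PRC2 to CpG-rich DNA, 0.43 ± 0.11, adjusted p = 0.0148), with 0 lower, where 10.2% and 14.2% of all genes were called higher. Neither passed on the deposited scale, where Mtf2 was -0.04. Jarid2, another recruiting partner, gave 0.49 in Snf5-/- cells (adjusted p = 0.0987) and 0.51 in Brg1-/- cells (adjusted p = 0.0515). The list's medians were 0.13 and 0.25 after normalization, and -0.21 and -0.40 on the deposited scale.

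Of 14 tested further genes of PRC1, 0 rose and 1 fell in Snf5-/- cells (10.2% and 7.14% of all genes), and 1 rose and 2 fell in Brg1-/- cells (14.2% and 12.2%). Kdm2b, which binds unmethylated CpG DNA and brings variant PRC1 there, rose in Brg1-/- cells (0.64 ± 0.15, adjusted p = 0.00726), a call that ended with the deposited values (0.21, adjusted p = 0.379). Yaf2, a partner of the RING proteins in variant PRC1, had 1083, 1339.9 and 1256 on the Snf5-/- arrays, 1039, 874, 1214 and 1070.0 on the Brg1-/- arrays, and 2816, 1658 and 1875 on the WT arrays. As deposited, all WT arrays were above all mutant arrays for Yaf2, while the Snf5-/- and WT arrays overlapped after normalization. It fell by 0.43 on the log2 scale in Snf5-/- cells (adjusted p = 0.0498) and by 0.42 in Brg1-/- cells (adjusted p = 0.0295), and it also passed on the deposited scale (-0.75 and -0.98). The Snf5-/- call lay at the threshold and held in 7 of 20 alternative settings, and the Brg1-/- call held in 15. Scmh1, a SAM domain protein related to Sex comb on midleg, fell by 0.49 in Brg1-/- cells (adjusted p = 0.0298).

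Among 9 tested genes that remove the marks of Polycomb, the H2A deubiquitinases with their partners and the H3 lysine 27 demethylases, 2 rose in Snf5-/- cells and 4 in Brg1-/- cells, with 0 lower, against 10.2% and 14.2% of all genes called higher. Kdm6a (Utx), a demethylase encoded on the X chromosome, had 342, 326 and 423 on the Snf5-/- arrays, 202, 247, 244 and 272 on the Brg1-/- arrays, and 256, 146 and 117 on the WT arrays. The Snf5-/- arrays stood above all WT arrays, and the Brg1-/- arrays overlapped with the brightest of them. Kdm6a rose by a log2 change of 1.41 ± 0.20 in Snf5-/- cells (limma adjusted p = 0.000792), and by 0.99 ± 0.19 in Brg1-/- cells (adjusted p = 0.00285). Hcfc1, also on the X chromosome, gave 0.57 and 0.55 (adjusted p = 0.00396 and 0.0022), but with the mean of its probe sets the Snf5-/- call ended (0.064, adjusted p = 0.756), so its probe sets disagreed. Asxl1 (0.52) and Mbd6 (0.67) rose in Brg1-/- cells, the first without a call when its probe sets were averaged (adjusted p = 0.0799). Of these calls only that of Kdm6a in Snf5-/- cells also passed on the deposited scale. Rbbp7, named above, is X-linked too, whereas 0 of the 10 members are.

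Transcripts of the sex chromosomes differed between the groups. Xist, the RNA of the inactive X chromosome, had 3539, 3068 and 3476 on the Snf5-/- arrays, 1783, 2482, 2182 and 4477 on the Brg1-/- arrays, and 2575, 183 and 1550.3 on the WT arrays. The second WT array was far below all others. Eif2s3y, a gene of the Y chromosome, had 79.2, 49.6 and 145 on the Snf5-/- arrays, 149.3, 85.7, 129 and 55.1 on the Brg1-/- arrays, and 290.2, 255 and 189 on the WT arrays, all WT arrays being above all mutant arrays. It passed in neither comparison (-1.31, adjusted p = 0.057, in Snf5-/- cells and -0.90, adjusted p = 0.125, in Brg1-/- cells), and Uty, also on the Y chromosome, gave -0.92 in Snf5-/- cells (adjusted p = 0.132) and fell in Brg1-/- cells (-1.42, adjusted p = 0.0142). Xist was called higher in Snf5-/- cells (2.21, adjusted p = 0.0432) and in Brg1-/- cells (2.09, adjusted p = 0.0307). These transcripts were looked at after the X-linked genes were seen, the labels used here give no sex, and their part in the results for Kdm6a, Hcfc1 and Rbbp7 was not tested. Without the second WT array Kdm6a gave 1.36 in Snf5-/- cells (adjusted p = 0.00514) and 0.93 in Brg1-/- cells (adjusted p = 0.0151), while Rbbp7 in Snf5-/- cells no longer passed (0.36, adjusted p = 0.103). The counts of Polycomb genes called higher were 2 and 4 without that array as well. Eif2s3y on the other WT arrays (290.2 and 189) was still above all mutant arrays, so this setting cannot remove the difference between the groups. The part of these transcripts in the results for the Polycomb genes was not tested.

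Trithorax genes encode the H3 lysine 4 methyltransferase complexes that act against Polycomb. Of 10 tested, 2 rose in Snf5-/- cells and 4 in Brg1-/- cells, with 0 lower, against 10.2% and 14.2% of all genes called higher. Men1 (menin) rose in both (0.53, adjusted p = 0.0238, and 0.60, adjusted p = 0.0061), as did Kmt2c, a methyltransferase of enhancers (0.69 and 0.59). Dpy30 (0.34) and Paxip1 (0.43) rose in Brg1-/- cells. The medians of the list were 0.17 and 0.32 after normalization, and -0.11 and -0.15 on the deposited scale, where 0 trithorax genes rose and Dpy30 in Brg1-/- cells was at -0.15.

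The loci of cyclin-dependent kinase inhibitors include the classical Polycomb target of fibroblasts. Cdkn2a (Ink4a/Arf) had 63.7, 104 and 68.8 on the Snf5-/- arrays, 70.1, 46.7, 82.3 and 118 on the Brg1-/- arrays, and 114, 62.7 and 110.3 on the WT arrays, and it failed the filter. Its groups overlapped and the values lie not far above background. The neighbouring Cdkn2b (Ink4b) had 1462, 1911 and 1532 on the Snf5-/- arrays, 1007, 1035, 1004 and 1267 on the Brg1-/- arrays, and 3491, 2006 and 2091 on the WT arrays. As deposited, the Brg1-/- arrays were below all others, while after normalization they overlapped with the Snf5-/- arrays. The normalized Cdkn2b fell by 0.61 ± 0.15 on the log2 scale in Brg1-/- cells (limma adjusted p = 0.0119) and gave -0.25 in Snf5-/- cells (adjusted p = 0.329).

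Of the 6 inhibitor genes tested, 2 rose and 0 fell in Snf5-/- cells (10.2% and 7.14% of all genes), and 2 rose and 3 fell in Brg1-/- cells (14.2% and 12.2%). Cdkn2c (Ink4c) rose in both, with 576, 312 and 945 on the Snf5-/- arrays, 643, 604, 732 and 589 on the Brg1-/- arrays, and 240.2, 254 and 193 on the WT arrays. All mutant arrays were above all WT arrays, with log2 changes of 1.53 ± 0.26 (adjusted p = 0.00257) and 1.93 ± 0.25 (adjusted p = 0.000194). Cdkn2d (Ink4d) rose by 0.63 and 0.88, and both calls ended with the deposited values (adjusted p = 0.302 and 0.127). Cdkn1a (p21) and the imprinted Cdkn1c (p57) fell in Brg1-/- cells (-0.64 and -1.74) and gave 0.22 and -0.22 in Snf5-/- cells, where a second Cdkn1a probe set gave -0.52 and did not pass either, although it passed with the deposited values (-0.92, adjusted p = 0.0229). The difference between Brg1-/- and Snf5-/- cells itself passed for both genes (-0.86 and -1.52), but not for the second Cdkn1a probe set (-0.75, adjusted p = 0.0999). Cdkn1b (p27) gave 0.56 and 0.55 and did not pass.

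**Figure D4:**
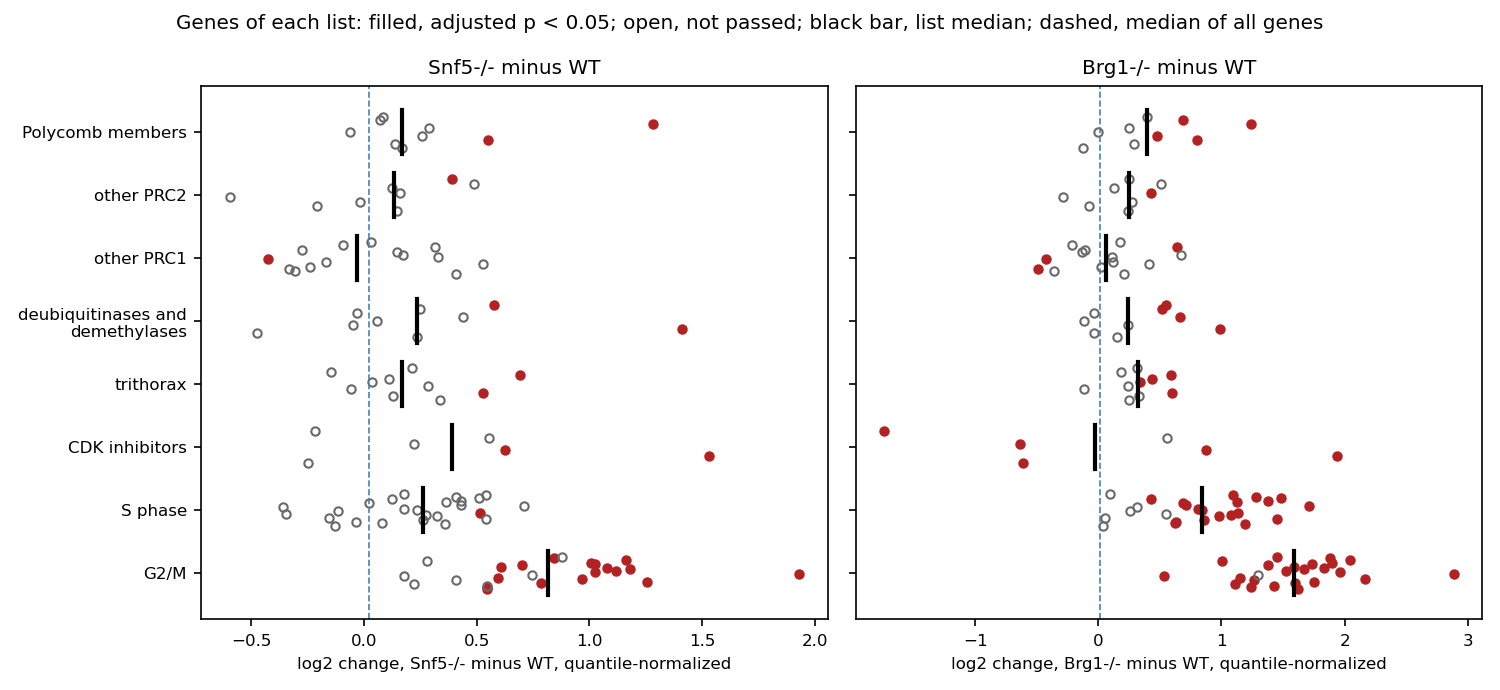
Quantile-normalized log2 change (horizontal axis) of each tested gene of 8 lists in Snf5-/- minus WT (left) and Brg1-/- minus WT (right); each point is a gene, filled red where the adjusted p was under 0.05, black bars are list medians and the dashed line is the median of all genes. The Polycomb medians (0.17 and 0.40) lie near those of the trithorax list (0.17 and 0.32) and below those of the G2/M list (0.81 and 1.59).

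Polycomb is known to mark many developmental genes in embryonic stem cells. Of 19 tested Hox genes, 1 rose in Snf5-/- cells (Hoxc6, 0.61) and 2 in Brg1-/- cells (Hoxd13, 1.50, and Hoxd11, 1.52), with 0 lower after normalization, where 10.2% of all genes were called higher and 7.14% lower in Snf5-/- cells, and 14.2% and 12.2% in Brg1-/- cells. With the deposited values 2 and 6 were lower, where 16% and 43.3% of all genes were called lower. The call for Hoxc6 ended there (adjusted p = 0.308). Hoxd13, which patterns the digits, had 134, 202 and 398 on the Snf5-/- arrays, 329, 322, 501 and 537 on the Brg1-/- arrays, and 195.5, 190.2 and 196 on the WT arrays, with all Brg1-/- arrays above all WT arrays. Of 27 other developmental transcription factors tested, 2 rose and 1 fell in Snf5-/- cells, and 3 rose and 2 fell in Brg1-/- cells. As deposited, 3 were lower in Snf5-/- cells and 7 in Brg1-/- cells, against the same 16% and 43.3% of all genes. Pax3, a factor of the neural crest and muscle progenitors, rose in both (1.11 and 1.21), and so did Lhx2 (1.03 and 1.22), whose Snf5-/- call ended with the deposited values (adjusted p = 0.106). Msx2, a homeobox factor of the limb and skull, fell by 1.04 in Snf5-/- cells and by 1.34 in Brg1-/- cells. Of 9 tested genes of the Rb and E2F families, Rb1 rose (0.81) and E2f1 fell (-0.48) in Snf5-/- cells, and Rbl1 rose in Brg1-/- cells (0.95), but the calls for Rb1 and Rbl1 ended with the deposited values (adjusted p = 0.164 and 0.072).

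Some markers of other cells also differed between groups. The counts below stand beside 10.2% of all genes called higher and 7.14% lower in Snf5-/- cells, and 14.2% and 12.2% in Brg1-/- cells. Of 8 skeletal muscle markers, 2 passed the filter and Acta1 fell in both mutants; the 2 genes summed to an intensity of 584 to 1572 on the Snf5-/- arrays, 311 to 562 on the Brg1-/- arrays and 5324 to 9339 on the WT arrays, while Myf5 and Tnnt1 were at background on every array. Myod1, which failed the filter, had 51.1 to 60.6 on the Snf5-/- arrays, 31.9 to 51.8 on the Brg1-/- arrays and 78.4 to 108 on the WT arrays, and Chrna1, which failed it too, had 21.3 to 72.5, 3.6 to 60.7 and 78.7 to 147 on the same groups. For both, all WT arrays were above all mutant arrays. Myog and Myh3, which failed the filter too, did not separate in this way. Myog had 11.6 to 91.1 on the Snf5-/- arrays, 20.7 to 46.3 on the Brg1-/- arrays and 47 to 91.5 on the WT arrays. Myh3 had 9.9 to 25.7, 4.9 to 40.3 and 4.5 to 29.4 on the same groups. Most of the summed muscle intensity on the WT arrays was Acta1 (4793.5 to 8808.3). Of 10 epithelial markers, 7 were tested and 1 fell in Snf5-/- cells (Dsp) and 3 in Brg1-/- cells, the 7 summing to 1189 to 1645 on the Snf5-/- arrays, 767 to 981 on the Brg1-/- arrays and 1686 to 2636 on the WT arrays. Of 15 leukocyte markers, 13 were tested, and 1 rose in Snf5-/- cells and 2 in Brg1-/- cells, near those shares. The 13 summed to 3236 to 11402 on the Snf5-/- arrays, 2642 to 5435 on the Brg1-/- arrays and 4141 to 7101 on the WT arrays. The sum of 11402 was that of the second Snf5-/- array, against 3236 and 3895 on the other Snf5-/- arrays, and this array was also the lowest of its group for Ezh2 and for the means of the S phase and G2/M lists. Without it the Polycomb genes called higher were 2 in Snf5-/- cells and 4 in Brg1-/- cells, Ezh2 gave 0.22 in Snf5-/- cells (adjusted p = 0.373), and Ezh2 between Brg1-/- and Snf5-/- cells no longer passed (0.47, adjusted p = 0.10). Of 7 neural markers on the array, 6 were tested and 2 fell in each mutant, and of 8 endothelial markers 3 were tested, of which 1 rose in Snf5-/- cells and 1 rose and 1 fell in Brg1-/- cells. Of 8 pluripotency markers 1 was tested and did not pass, and 3 were at background on all arrays. The part of such cells in the results for the Polycomb genes was not tested.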

How the data were processed

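RNA of MEFs was measured on 10 Affymetrix arrays. The authors deposited 1 intensity per probe set on a linear scale, made with MAS5 per the submitters' processing notes; its version, scaling target and filters are not given in the sources used here. Here the deposited intensity was turned into log2 values with no pseudocount and quantile-normalized between arrays (limma 3.58.1, R 4.3.3). Probe sets were named from the array's annotation, updated by gene ID: 20380 carried 1 symbol, 691 several and 1555 none, and 64 were controls. The 13370 single-symbol probe sets (8403 genes) that reached the 40th percentile of the array on 3 or more arrays were tested with lmFit and eBayes with an intensity trend, 1 mean per group over all 10 arrays, two-sided, with Benjamini-Hochberg adjustment over all probe sets and a threshold of 0.05. Intervals are 95% intervals of that fit. A gene is represented by its brightest probe set. Background is the level of 27 Bacillus control probe sets.

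Named were all members, the targeted genes, all inhibitor loci, up to 4 genes per other list with the smallest adjusted p against WT, and the 5 profiles nearest to Ezh2; Xist, Eif2s3y, Uty and examples in the marker lists were chosen after their values were seen. The members and lists were chosen with earlier results of these data known. The fit was tested on simulated data. Alternatives were the deposited scale, median centring, other filters, a pseudocount of 16, no trend, gene-level fits, only the groups compared, the replicate number as a block, and leaving out each array. Correlations between the deviations of same-numbered arrays ran from -0.092 to 0.118, and the main fit did not pair them. With so few arrays a group, such values cannot show whether these arrays shared a litter or batch. Motifs were searched as exact letters in RefSeq promoter windows of GRCm38.p6.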

Additional observations from a re-analysis of the deposited data

Results flagged for a closer look

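Among the 9 Polycomb members and 6 inhibitor loci tested, 3 genes differed between the mutants, where 3.92% of all genes did. They were Ezh2 (log2 difference 0.62, Brg1-/- minus Snf5-/-), Cdkn1a (-0.86) and Cdkn1c (-1.52). The Ezh2 call held in 6 of 20 alternative settings, and the second Cdkn1a probe set did not pass (limma adjusted p = 0.0999). Among 51 genes, 3 had a single Brg1-/- array that stood apart from the other 3, relative to the range of the group's normalized values. Whether chance gives that number was not tested, and the genes share the same Brg1-/- arrays, so they are not independent. The distance itself can be small: for Bmi1 the Brg1-/- log2 values ran only from 9.37 to 9.46. The gap over the whole range was 0.881 for Bmi1 and 0.891 for Cdkn2d, with the first Brg1-/- array lowest in both, and 0.854 for Phc1, with the second Brg1-/- array highest.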

How the results depend on the processing

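Rnf2 kept its calls against WT in all 20 alternatives, and Ezh2 and Phc1 in Brg1-/- cells in all but the deposited scale. On the deposited scale 1 Polycomb gene was called in Snf5-/- cells, 1 in Brg1-/- cells and 0 between the mutants, and 6206 probe sets changed in Brg1-/- cells, 432 higher and 5774 lower. On that scale changes turned below 0 in Snf5-/- cells for Ezh1 (-0.0925), Ezh2 (-0.22), Eed (-0.023), Suz12 (-0.032), Bmi1 (-0.16), Ring1 (-0.17) and Cdkn1a (-0.11), in Brg1-/- cells for Eed (-0.27), Suz12 (-0.019), Bmi1 (-0.19), Ring1 (-0.026), Cbx2 (-0.41), Mtf2 (-0.042) and Dpy30 (-0.15), and between the mutants for Bmi1 (-0.035) and Cbx2 (-0.087). Each array's own level is part of the value there. Between Brg1-/- and Snf5-/- cells, 0 Polycomb genes were called with median centring, no filter, no intensity trend (268 probe sets) or only the groups compared (203 probe sets), and 301 probe sets with the mean of a gene's probe sets; with only the groups compared, 1 was called in Snf5-/- cells. Median centring turned Cbx2 in Brg1-/- cells to -0.0059. The mean of a gene's probe sets turned Ezh1 (-0.041) and Cdkn1a (-0.15) in Snf5-/- cells, and Bmi1 (-0.033) and Rnf2 (0.20) between the mutants, and ended calls in Snf5-/- cells for Yaf2, Hcfc1, Men1 and Mcm7, and in Brg1-/- cells for Mtf2, Asxl1 and Paxip1. With the replicate number as a block, 0 Polycomb genes were called between the mutants, where Eed (0.027), Rnf2 (0.0031) and Cdkn1b (0.12) turned sign, and counts were 2 and 4 against WT. Leaving out 1 array gave 1 to 2 Polycomb genes in Snf5-/- cells, 3 to 4 in Brg1-/- cells and 0 to 1 between them, with 1224 to 2403, 2306 to 3590 and 112 to 755 probe sets, the lowest without the third WT array, the third WT array and the third Brg1-/- array. Of 89 gene results, 11 changed sign at least once when an array was left out, none of them called: Ezh2 (-0.12 to 0.22), Bmi1 (-0.058 to 0.38), Ring1 (-0.0038 to 0.24) and Cbx2 (-0.20 to 0.00995) in Snf5-/- cells, Ezh1 (-0.20 to 0.0072) and Cbx2 (-0.10 to 0.16) in Brg1-/- cells, and Eed (-0.098 to 0.034), Bmi1 (-0.093 to 0.35), Rnf2 (-0.21 to 0.17), Cbx2 (-0.035 to 0.22) and Cdkn1b (-0.16 to 0.12) between the mutants. Leaving out 1 array also ended calls in Snf5-/- cells for Phc1, Rbbp7, Yaf2, Men1, Kmt2c, Cdkn2d, Rb1, E2f1, Hoxc6, Lhx2, Mcm7 and Ccna2 (highest adjusted p from 0.0582 for Mcm7 to 0.162 for Yaf2), and in Brg1-/- cells for Suz12, Mtf2, Yaf2, Scmh1, Asxl1, Mbd6, Kmt2c, Dpy30, Paxip1, Cdkn2b and Eomes (from 0.0532 for Asxl1 to 0.17 for Mbd6). The causes were not tested. Signal near background limits Cbx7 and Cdkn2a.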
